A study of Mus musculus with 6 samples.

Results

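The genes described here are 10 targets and modifiers of the Notch pathway: the transcription factor genes Hes1, Hes5, Hes7, Hey1, Hey2 and Heyl, the feedback gene Nrarp, and the Fringe genes Lfng, Mfng and Rfng. They were chosen by name, as array features whose annotation lists 1 gene symbol only, and each of the 10 had 1 such feature among the 30702 genes measured. The samples were mouse embryonic stem cells of a line labelled iRunx, grown as embryoid bodies for 4 days and sorted as Flk1+ PDGFRα- cells. Of the 6 samples, 3 expressed HOXB4 from a retrovirus with tdTomato and 3 did not, and each went onto 1 array as an independent experiment. The control group is labelled iRunx and the other iRunx with HOXB4 expression. Whether the controls carried an empty vector, and whether the Runx transgene that the line's name points to was switched on in either group, the sources used here do not say.

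Notch is a receptor that is cut when a ligand on a neighbouring cell binds it, and its freed intracellular part enters the nucleus and joins the DNA-binding protein RBPJ. This complex switches on Hes and Hey genes, which encode basic helix-loop-helix repressors, and Nrarp, whose ankyrin-repeat protein dampens the complex in return. Fringe enzymes act earlier: in the Golgi they add a sugar to the receptor and so change which ligands it answers. In the embryo the pathway takes part in arterial identity, in the emergence of blood from endothelium and in the segmentation of paraxial mesoderm.

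Values are the authors' log2 summaries of expression, so a difference of 1 is a 2-fold change. They compare a gene between arrays and not 1 gene with another. The 23 background features had medians of 3.06 to 3.15 and reached between 5.80 and 6.17, and the median over all features was 4.59 to 4.71. Kdr, which encodes Flk1, stood between 13.7 and 14.3 in all arrays. The sort was against PDGFRα; the Pdgfra feature, shared with Mir7025 in the annotation, ranged from 5.95 to 7.15. The feature for Hoxb4, 4.24 to 4.96, is also listed for Mir10a and overlapped between the groups, so it does not check the labels. Most measured markers of other cell types reached the median of all features on at least 1 array. Those that stayed below it on every array were Meox1, Pax3 and Uncx of 8 for paraxial mesoderm, Afp and Ttr of 6 for endoderm, Tbx5 of 10 cardiac, Ptprc of 10 blood, Pax6 of 6 neural and Dppa3 of 6 for pluripotent cells. In whole sorted populations, a smaller share of expressing cells and less RNA per cell cannot be told apart. With 3 arrays a group, precision is limited throughout.

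None of the 10 genes differed between HOXB4 and control cells beyond the spread of the replicates. With limma's moderated test, 0 of the 10 passed a Benjamini-Hochberg adjusted p of 0.05 over all genes, where 0% of the 30702 genes passed. At an unadjusted p of 0.05 the members again gave 0, against a background of 8.19% of genes (5.95% lower and 2.23% higher in HOXB4), and the linear model without moderation gave 0 members by either measure. Adjusted p ran from 0.63 to 0.97 over the 10 genes, and from 0.48 to 1.00 over all alternatives. The HOXB4 and control values overlapped for all 10 genes, where 13.5% of all genes had no overlap (10.2% lower in HOXB4 and 3.24% higher). The difference was below 0 for 8 of the 10, with a median of -0.13, while 60% of all genes lay below 0 with a median of -0.04.

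**Figure D1:**
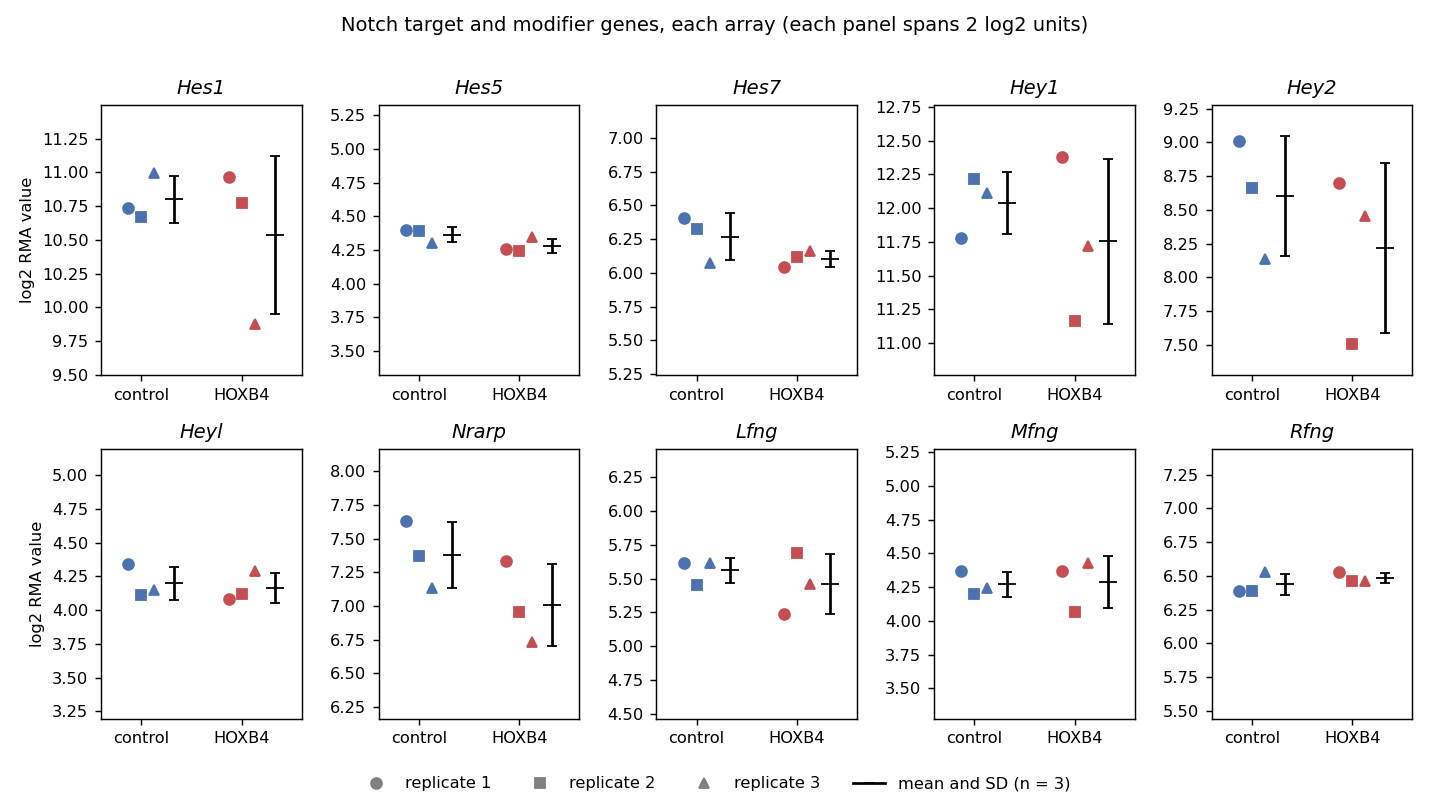
Log2 RMA values (vertical axis) of the 10 genes in 3 control (blue) and 3 HOXB4 (red) arrays; shapes give the replicate number, and the black bars are the mean and SD of each group (n = 3). Every panel spans 2 log2 units, and in each the groups overlap; Hey1 and Hey2 are lowest in HOXB4 2 and Hes1 is lowest in HOXB4 3.

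The promoters of Hes5, Hey2 and Lfng show where RBPJ could read its motif beside these genes. Promoters in the RefSeq table (GRCm38.p6), from 250 bases before to 50 after the start, matched 6 members by symbol: Hes5, Hes7, Hey2, Nrarp, Lfng and Rfng. TGGGAA, the core of the RBPJ motif, was searched on both strands and found in 4 of these 6 promoters, against 25.6% of the 32851 promoters in the table. The 3 printed here hold 2 matches each, and 2 or more are found in 3.79% of all promoters, while the Hes7 promoter holds 1. They are shown 5′ to 3′ in the direction of the gene, with the matches in capitals (TTCCCA is TGGGAA on the other strand).
Hes5, chr4:154960673-154960972, + strand: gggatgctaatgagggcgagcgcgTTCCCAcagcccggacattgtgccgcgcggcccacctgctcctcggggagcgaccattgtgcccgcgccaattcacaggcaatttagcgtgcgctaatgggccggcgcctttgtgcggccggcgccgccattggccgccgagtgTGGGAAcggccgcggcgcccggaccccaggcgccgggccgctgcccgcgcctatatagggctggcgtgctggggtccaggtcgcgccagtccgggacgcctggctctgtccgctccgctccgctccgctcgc
Hey2, chr10:30842734-30843033, - strand: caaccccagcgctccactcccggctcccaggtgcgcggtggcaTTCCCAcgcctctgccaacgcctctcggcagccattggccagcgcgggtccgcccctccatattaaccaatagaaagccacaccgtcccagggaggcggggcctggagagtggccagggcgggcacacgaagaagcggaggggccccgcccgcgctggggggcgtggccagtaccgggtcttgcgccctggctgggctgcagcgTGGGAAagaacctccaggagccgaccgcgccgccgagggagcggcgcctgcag
Lfng, chr5:140607091-140607390, + strand: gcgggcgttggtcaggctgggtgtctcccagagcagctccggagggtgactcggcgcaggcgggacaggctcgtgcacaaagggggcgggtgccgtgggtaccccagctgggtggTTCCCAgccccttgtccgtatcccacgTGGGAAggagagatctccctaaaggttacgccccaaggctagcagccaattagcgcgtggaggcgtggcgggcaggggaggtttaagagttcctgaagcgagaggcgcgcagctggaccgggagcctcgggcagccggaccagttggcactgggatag
The matches begin 226 and 82 bases before the start in Hes5, 207 and 3 bases before it in Hey2, and 135 and 108 bases before it in Lfng. Sites that Hes and Hey proteins can bind were searched in the same way. CACGTG was found in the Lfng and Nrarp promoters (7.15% of all promoters), CACGCG in Hes7, Lfng and Rfng (9.27%), and the N-box CACNAG in Hes7, Lfng, Nrarp and Rfng (42.5%). In Lfng the CACGTG match shares 2 bases with a TGGGAA match, and no other matches overlapped in these 6 promoters. Whether the number of matches goes with the level of a gene was not tested. A match is a stretch of letters and not a measured site.

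Hes1, a repressor that Notch induces in many tissues and that also represses its own gene, was well above background on every array. It read 10.73, 10.67 and 10.99 in the controls and 10.97, 10.77 and 9.87 in the HOXB4 arrays, here and throughout in the order of the replicate numbers. HOXB4 1 and 2 lay within the controls and HOXB4 3 alone lay below them. The means were 10.80 ± 0.17 and 10.54 ± 0.58 (SD, n = 3 each), a log2 difference of -0.26 (SE 0.28; adjusted p = 0.80, limma). The difference was 0.07 without HOXB4 3 and -0.48 without HOXB4 1.

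Hes5, an effector of Notch in neural progenitors, had a low signal. It stood at 4.40, 4.39 and 4.30 in controls and at 4.26, 4.25 and 4.34 in HOXB4 cells, all below the median of all features. The difference was -0.08 (SE 0.08), and -0.11 to -0.06 with each array left out in turn. Hes7, the oscillating repressor of the segmentation clock in presomitic mesoderm, stood at 6.41, 6.32 and 6.07 in controls and at 6.04, 6.12 and 6.16 in HOXB4 cells. These values lay around the brightest background features, and only control 3 kept the groups from separating. Its difference was -0.16 (SE 0.11; adjusted p = 0.69, limma), -0.26 without control 3 (unadjusted p = 0.040, adjusted p = 0.48, limma) and -0.091 without control 1 (unadjusted p = 0.46, adjusted p = 0.94, limma). Neither gene had an SD over the 6 arrays above that of the median gene.

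Hey1, which acts with Hey2 in vessels and heart, had values of 11.78, 12.22 and 12.11 in controls and of 12.38, 11.16 and 11.72 in HOXB4 cells. HOXB4 1 was the highest and HOXB4 2 the lowest of all arrays, so the HOXB4 group spanned the controls on both sides. The means were 12.0 ± 0.23 and 11.8 ± 0.61 (SD, n = 3 each), a difference of -0.28 (SE 0.30; adjusted p = 0.80, limma). It was 0.01 without HOXB4 2 and -0.60 without HOXB4 1.

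Hey2, a transcriptional repressor expressed in arterial endothelium and ventricular heart muscle, had the widest spread of the 10 genes, larger than that of 96.2% of all genes. It stood at 9.01, 8.66 and 8.13 in controls and at 8.70, 7.51 and 8.46 in HOXB4 cells. Here too HOXB4 2 was the lowest array, while HOXB4 1 and 3 lay within the controls. The difference was -0.38 (SE 0.35; adjusted p = 0.76, limma), and it ran from -0.62 without HOXB4 1 to -0.03 without HOXB4 2. Heyl, a relative known from vascular smooth muscle, also stayed below the median of all features, at 4.34, 4.11 and 4.15 in controls and 4.08, 4.12 and 4.29 in HOXB4 cells. Its difference of -0.04 (SE 0.11) changed sign with array weights, with cyclic loess scaling, and without control 1 or HOXB4 1.

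Nrarp, the feedback inhibitor, had the smallest unadjusted p of the 10 genes (0.094; adjusted p = 0.63, limma). The controls read 7.63, 7.37 and 7.13, and the HOXB4 arrays 7.33, 6.95 and 6.74. HOXB4 2 and 3 lay below every control, and HOXB4 1 lay between controls 2 and 3. The means were 7.38 ± 0.25 and 7.01 ± 0.30 (SD, n = 3 each), a difference of -0.37 (SE 0.19), or 1.29-fold lower. The difference stayed below 0 with array weights, with the 2 scalings and with each array left out. It ran from -0.53 without HOXB4 1 (unadjusted p = 0.022, adjusted p = 0.91, limma) to -0.23 without HOXB4 3. The other alternatives leave the difference of a gene with 1 feature, such as Nrarp, unchanged.

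The 3 Fringe genes all differed by 0.10 or less, and so did Hes5 and Heyl. Lfng, the Fringe gene of the segmentation clock, stood at 5.62, 5.45 and 5.61 in controls and at 5.24, 5.69 and 5.46 in HOXB4 cells, so the HOXB4 group held both its lowest and its highest value. Mfng stood at 4.37, 4.20 and 4.24 in controls and at 4.37, 4.07 and 4.43 in HOXB4 cells, below the median of all features throughout. Rfng was the steadiest of the 10 genes, at 6.39, 6.39 and 6.53 in controls and 6.53, 6.46 and 6.46 in HOXB4 cells, above every background feature. The differences were -0.10 (SE 0.13) for Lfng, 0.02 (SE 0.12) for Mfng and 0.05 (SE 0.09) for Rfng. The sign turned for Lfng without HOXB4 1 (0.01), and for Mfng without control 2, HOXB4 1 or HOXB4 3 (-0.02, -0.02 and -0.05). With each array left out, Rfng ran from 0.03 without control 1 to 0.10 without control 3. The SD of Rfng over the 6 arrays was smaller than that of all but 5.06% of genes.

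A test that misses its threshold does not show equal levels, so the 95% intervals of the differences bound what these arrays allow. For 9 of the 10 genes the interval lay within a 2-fold change in either direction. The exception was Hey2, whose interval ran from -1.22 to 0.45, and that of Hey1 came close, from -0.99 to 0.43. Hes1 ran from -0.93 to 0.41 and Nrarp from -0.82 to 0.08. The intervals of Hes5, Hes7, Heyl, Lfng, Mfng and Rfng, 6 genes, lay within 1.5-fold. Of these, Hes5, Heyl and Mfng were below the median of all features on every array. Lfng lay below the brightest background feature on every array, and Hes7 lay around the brightest ones. At such levels an interval bounds the change in array signal and may not bound that in RNA. The intervals are those of single genes, not adjusted over the 10.

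**Figure D2:**
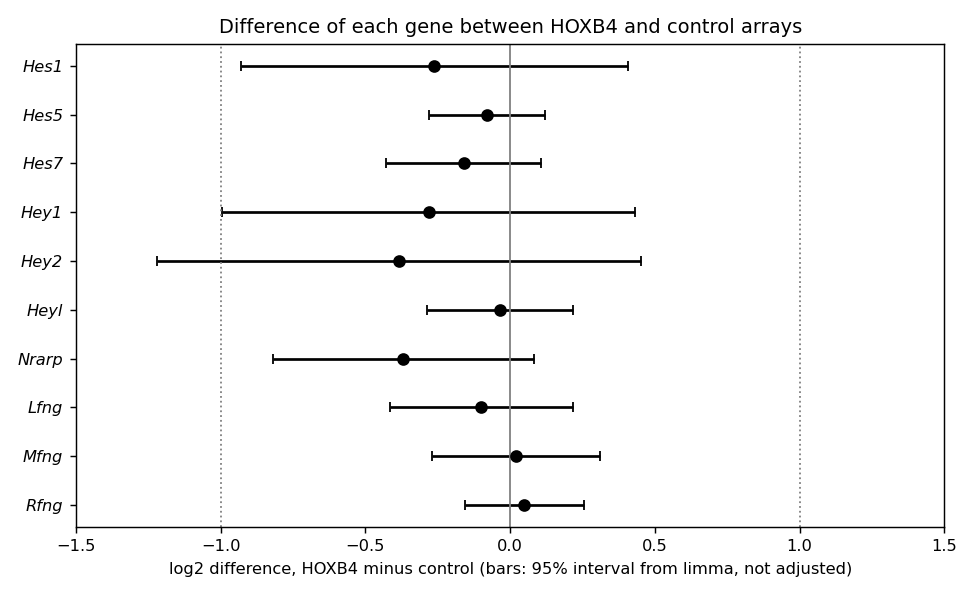
Log2 difference of each gene, HOXB4 minus control (horizontal axis; point), with its 95% interval from limma (bar; 3 arrays per group, not adjusted for the number of genes). The dotted lines mark a 2-fold change; all 10 intervals include 0, and only that of Hey2 passes a dotted line.

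The genes varied in different arrays. HOXB4 2 had the lowest value of 4 genes (Hes5, Hey1, Hey2 and Mfng), and of 14.0% of all genes. HOXB4 1 was lowest for 3 (Hes7, Heyl and Lfng), near its share of 27.4% of all genes. HOXB4 3 was lowest for 2 (Hes1 and Nrarp; 16.3% of all genes) and control 1 for Rfng (13.6%). Control 1 had the highest value of 5 genes (Hes5, Hes7, Hey2, Heyl and Nrarp), where it had the highest value for 32.8% of all genes. Hes1, Hey1, Hey2 and Nrarp, 4 genes, each had an SD over the 6 arrays above that of 85% of all genes, and the other 6 had an SD below that of the median gene. The low values of Hey1 and Hey2 in HOXB4 2 were not shared by Hes1, whose value there lay within the controls.

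Markers of endothelium moved between the arrays as well, and their mean overlapped between the groups. Of the marker list means, only the cardiac, lower in HOXB4 cells, and the neural, higher in them, had no overlap. All 12 of the 12 endothelial markers were measured, none was below the median of all features on every array, and they averaged 8.89, 10.29 and 8.88 in the controls and 11.18, 8.68 and 10.01 in the HOXB4 arrays. HOXB4 2 was the lowest array for this mean as for Hey1 and Hey2, and HOXB4 1 the highest as for Hey1, but control 1, highest for Hey2, was among the low arrays. The mean of the cardiac markers, 10 of 11 measured, was 7.41 to 7.76 in controls and 6.45 to 7.24 in HOXB4 cells, and there HOXB4 2 was the highest of the HOXB4 arrays. The part of cell make-up in the values of Hey1, Hey2 or the other members was not tested. The means of the other lists were 5.38 to 5.41 in controls and 5.16 to 5.51 in HOXB4 cells for paraxial mesoderm (8 of 9 measured), 6.60 to 7.25 and 6.43 to 7.19 for blood (10 of 10), 5.76 to 5.94 and 5.99 to 6.32 for neural (6 of 7), 5.64 to 5.71 and 5.60 to 5.71 for endoderm (6 of 6), and 6.05 to 6.44 and 6.11 to 7.10 for pluripotent cells (6 of 6).

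**Figure D3:**
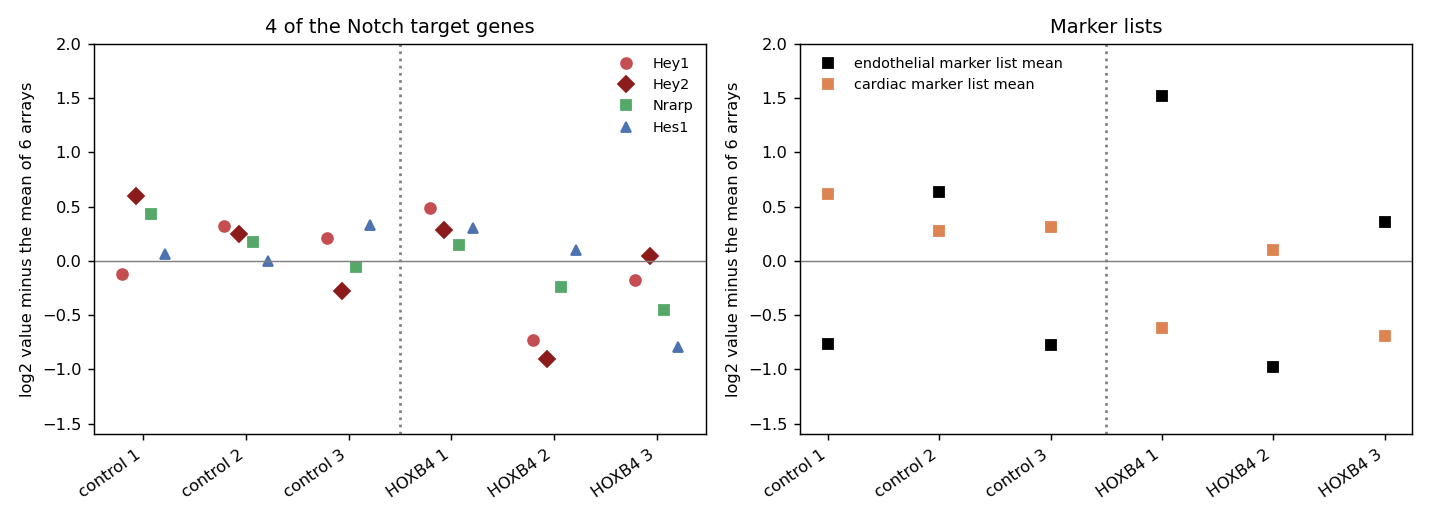
Log2 value minus the mean of the 6 arrays (vertical axis) on each array for Hey1, Hey2, Nrarp and Hes1 (left) and for the means of the endothelial and cardiac marker lists (right). Hey1, Hey2 and the endothelial mean are lowest in HOXB4 2, Hes1 and Nrarp are lowest in HOXB4 3, and the cardiac mean is lowest in HOXB4 1 and 3.

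The genes whose pattern over the 6 arrays was most like that of Hey2 were Rgs19 (Pearson r = 0.99), a regulator of G-protein signalling, Colca2 (r = 0.98), Fbxo28 (r = 0.98), an F-box protein gene, Scd1 (r = 0.97), a fatty acid desaturase, and Obsl1 (r = 0.97). They were the 5 highest of 11055 candidates, the 15350 other genes at or above the median gene in mean level less 4295 predicted, clone and microRNA genes. Of the candidates 66 (0.597%) reached an r of 0.9 or more. The closest of the 10 Notch genes were Mfng (r = 0.75), Hes5 (r = 0.70), Nrarp (r = 0.66) and Hey1 (r = 0.64), and Hes1 was at r = -0.09. Mfng and Hes5 had a low signal, below the level that the candidates had to reach. These correlations describe 6 arrays that form 2 groups, and carry no test.

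The rest of the pathway was described by 7 lists, together 107 genes besides the members, of which 100 were measured. Of the listed genes, 12 stand in more than 1 list. With limma, 0 of the 100 passed over all genes, and 8 (8%, against 8.19% of all genes) were at an unadjusted p of 0.05, 7 lower and 1 higher. The groups did not overlap for 14 of the 100, 9 lower and 5 higher in HOXB4 cells. That share, 14%, was near the 13.5% of all genes. From each list the 4 genes with the smallest unadjusted p are named, 27 in all. Leaving out a single array moved the difference of 17 of these 27 by over 1.5 times, and that of 9 of the 10 members. A difference near 0, such as that of Heyl (-0.04) or Mfng (0.02), passes this mark with a small shift. The 27 were picked by p and the members by name, so these counts cannot be compared.

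Among the 12 receptors and ligands, 8 lay above 0 and 4 below, with a median difference of 0.05. Of all 30702 genes, 12288 lay above 0 and 18414 below, with a median of -0.04. The direction counts of this and the other lists were not tested against that background. Dlk1, a ligand-like protein that lacks the receptor-binding domain of the classical ligands, stood at 6.56, 6.39 and 6.13 in controls and at 5.11, 5.85 and 5.27 in HOXB4 cells. All HOXB4 values lay below the controls, a difference of -0.95 (SE 0.21; unadjusted p = 0.0032, adjusted p = 0.60, limma). Its adjusted p was 0.077 (without HOXB4 2) to 0.93 over the alternatives. The ligand genes Jag2 and Dll1 differed by 0.44 (SE 0.22) and 0.13 (SE 0.18), and the receptor gene Notch1 by 0.24 (SE 0.18). With each array left out these ran from 0.21 to 0.65 for Jag2, -0.02 to 0.27 for Dll1 and 0.07 to 0.39 for Notch1, of which the lowest for Jag2 and Notch1 came without HOXB4 1 and for Dll1 without HOXB4 2.

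Of the 22 measured genes that process or sort receptor and ligand, 16 lay above 0, with a median of 0.09. Poglut1, which adds glucose to Notch, was lower in every HOXB4 array, at 9.08, 9.05 and 8.81 in controls against 8.64, 8.75 and 8.59 (difference -0.32, SE 0.11). The gamma-secretase subunit genes Aph1b and Ncstn differed by -0.16 (SE 0.09) and 0.26 (SE 0.16), and the ubiquitin ligase gene Dtx4 by 0.16 (SE 0.08). The difference of Ncstn ran from 0.13 without control 1 to 0.42 without control 3. Of the 14 measured genes of the nuclear complex, 10 lay above 0, with a median of 0.13. Snw1, a splicing factor that also binds the Notch complex, was lower in every HOXB4 array, at 11.76, 11.91 and 11.57 in controls against 11.13, 11.47 and 11.12 (difference -0.51, SE 0.14). Spen, a corepressor that binds RBPJ, was higher in every HOXB4 array (0.40, SE 0.17), and the coactivator genes Kat2b and Maml3 differed by 0.63 (SE 0.28) and 0.26 (SE 0.17). All 3 were smallest without control 1, at 0.22 for Spen, 0.39 for Kat2b and 0.10 for Maml3. The adjusted p of each gene in these lists was at or above 0.60 (limma), as it was for all 30702 genes.

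The 16 measured Hes relatives, HLH genes and corepressors divided into 9 above 0 and 7 below, with a median of 0.05. Tle3, a Groucho corepressor that Hes proteins recruit, was 8.68 and 8.71 in HOXB4 1 and 3 but 10.36 in HOXB4 2, within the controls (9.90 to 10.43), a difference of -0.88 (SE 0.45), or -1.43 without HOXB4 2. The HLH inhibitor genes Id3 and Id4 differed by -0.21 (SE 0.11) and 0.58 (SE 0.30), which were -0.14 and 0.24 without HOXB4 3, and Neurog2 by -0.18 (SE 0.09). In the segmentation clock list, all 20 measured, 8 lay above 0 and 12 below, with a median of -0.06. Aldh1a2, which makes retinoic acid, was 6.04, 5.71 and 5.90 in controls and 4.83, 5.45 and 4.95 in HOXB4 cells (difference -0.80, SE 0.18). The ERK phosphatase genes Dusp6 and Dusp4 differed by 1.02 (SE 0.23) and 0.99 (SE 0.45), with no overlap for Dusp6; Dusp4 was at 0.53 without control 1. Nkd1, a Wnt feedback gene, was 8.60 and 8.20 in HOXB4 1 and 3 but 11.06 in HOXB4 2, within the controls (10.81 to 11.41), a difference of -1.83 (SE 0.70; adjusted p = 0.60, limma). It was -2.72 without HOXB4 2 (adjusted p = 0.023, limma), where 46 of all genes passed, and -1.29 without HOXB4 3, and its adjusted p was 0.55 to 0.93 with any array other than HOXB4 2 left out.

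Of the 16 measured arterial genes, which include Hey1 and Hey2, 9 lay above 0, with a median of 0.05. The largest difference was that of the chemokine receptor gene Cxcr4 (-2.38, SE 0.82; adjusted p = 0.60, limma). It was -3.37 without HOXB4 2 (adjusted p = 0.049, limma), 1 of those 46 genes, and -1.63 without HOXB4 1, with an adjusted p of 0.49 to 0.93 when any array other than HOXB4 2 was left out. The arterial ligand gene Efnb2 differed by 0.29 (SE 0.19) and the netrin receptor gene Unc5b by -0.22 (SE 0.19). With each array left out Efnb2 ran from 0.18 (without HOXB4 3) to 0.47 and Unc5b from -0.45 to -0.09 (without HOXB4 3), the larger differences without HOXB4 2. Of 14 measured genes reported as Notch targets in some tissue, some of them also in the lists above, 5 lay above 0 and 9 below. Their median was -0.08. Snai2, a repressor active in mesenchymal transition, was 8.38, 7.63 and 6.95 in controls and 6.64, 6.74 and 6.48 in HOXB4 cells (difference -1.03, SE 0.33), and the difference was -0.67 without control 1, the highest array. Sox9, Myc and the cell cycle inhibitor gene Cdkn1a differed by -0.64 (SE 0.31), -0.39 (SE 0.19) and 0.37 (SE 0.20). Leaving out 1 array gave -1.01 for Sox9 (without HOXB4 2), -0.18 for Myc (without control 1) and 0.18 for Cdkn1a (without HOXB4 1).

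**Figure D4:**
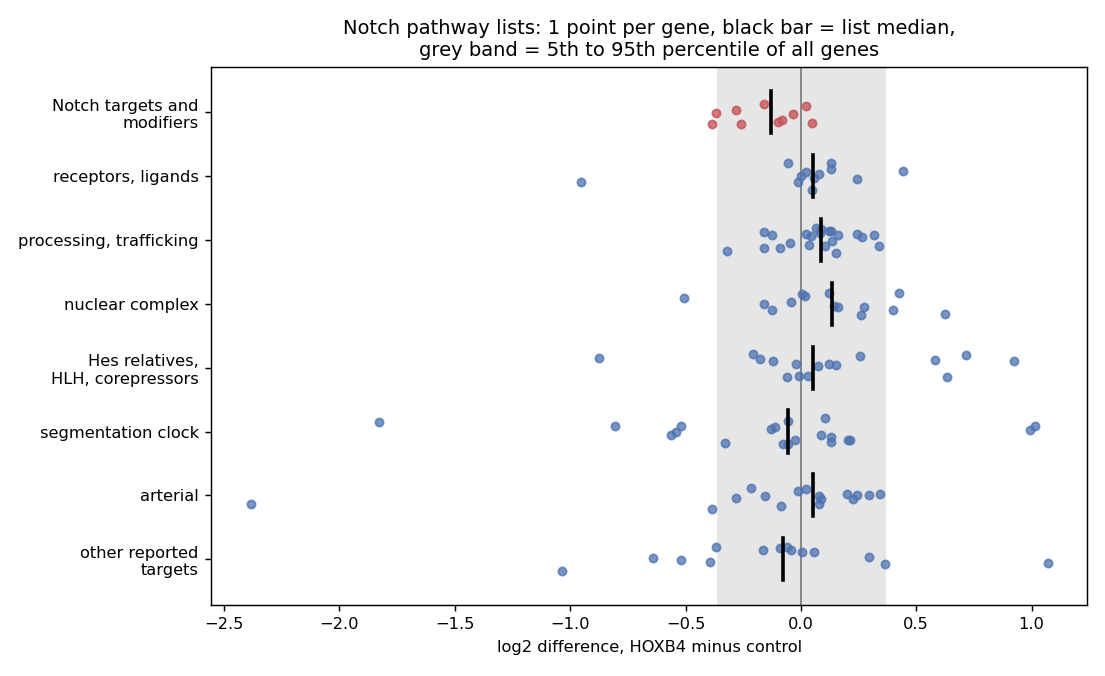
Log2 difference, HOXB4 minus control (horizontal axis), of each measured gene in the 10 Notch targets and modifiers (red) and in 7 other lists (blue); black bars are list medians, and the grey band holds the 5th to 95th percentile of all genes, -0.36 to 0.36. Of the 10 red points, those of Hey2 (-0.38) and Nrarp (-0.37) lie just outside the band, and Cxcr4 (-2.38) is the farthest blue point.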

How the data were processed

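RNA of 6 samples, 3 control and 3 HOXB4, was hybridised to 1 array each; per the labels' protocols, 100 ng per array was labelled (WT PLUS kit). The authors deposited log2 expression values, made with Affymetrix Expression Console and RMA per the submitters' processing notes; the sources used here do not give versions or settings. RMA equalises arrays, so a shift of most genes one way would be partly removed.

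Of 65956 features that are not controls, 31258 named 1 gene after symbols were brought up to date with RefSeq (GRCm38.p6), 1492 several and 33206 none listed. The brightest feature stood for each of 30702 genes. The difference between HOXB4 and control was tested with limma (version 3.58.1, R 4.3.3; two-sided, eBayes after lmFit, no replicate block, Benjamini-Hochberg over all genes, threshold 0.05). Where the labels say no more than independent experiments, p-values measure the spread between these samples. Data were simulated for this comparison with the means of the 30702 genes, limma's moderated SDs and noise independent between genes. They gave back 82% of 100 genes changed 2-fold and 99% of 100 changed 4-fold, with 9 unchanged genes called. On the real arrays many genes deviated together, so these percentages do not give the recovery there. The genes and lists were chosen with earlier results of these data known. Named were all 10 members, the 4 genes per other list with the smallest unadjusted p, and the 5 genes most like the member with the largest SD. Alternatives were a replicate block, 3 other ways of moderation, array weights, a filter on dim features, 2 scalings, 2 rules for features, all features tested, and each array left out. Tables used pandas 2.3.3 (Python 3.11.15) and plots matplotlib 3.10.9.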

Additional observations from a re-analysis of the deposited data

How the results depend on the processing

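Across 17 alternatives, 0 of the 10 genes passed limma's adjusted threshold. Over all genes 0 passed in the 11 alternatives that kept every array. When each array was left out in turn, the count of genes that passed ran from 0 to 46 and that of other pathway genes from 0 to 2, the upper ends without HOXB4 2; the 2 were Cxcr4 and Nkd1. The members without overlap numbered 1 (Hes5) with arrays centred on their medians, where 13.3% of all genes had no overlap, and 0 to 4 when an array was left out. The 4 (Hes5, Hes7, Nrarp and Rfng, without control 3) stood against 29% of all genes, the 2 without HOXB4 1 (Hey1 and Nrarp) against 20.5%, the 1 without HOXB4 2 (Mfng) against 31.9% and the 1 without HOXB4 3 (Hes5) against 21%. None lacked overlap without control 1 (20.4%) or control 2 (24.1%).

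Of 107 member values under the alternatives that kept every array, 105 kept their sign. Most of these could not turn, as each member has 1 feature. Only array weights and the 2 scalings can change the difference of such a gene. Heyl turned to 0.014 with array weights and to 0.0019 with cyclic loess. Of 60 values with an array left out, 52 kept their sign. The ranges of those that turned were -0.48 to 0.071 for Hes1, -0.60 to 0.014 for Hey1, -0.098 to 0.035 for Heyl, -0.21 to 0.012 for Lfng and -0.049 to 0.13 for Mfng. Among the other named genes Dll1 ran from -0.022 to 0.27. The filter on dim features removed Hes5, Heyl and Mfng, which have no value there.

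Deviations from the group means correlated at -0.40, -0.59 and -0.35 for numbers 1 to 3, and no control correlated best with the HOXB4 array of its number. The deviations of 3 arrays sum to 0 in each group, so these correlations depend on each other. They cannot settle whether the replicate numbers pair the samples. With the number as a block, 0 genes passed and 1294 were at an unadjusted p of 0.05, against 2513 without it and 1974 without moderation. Nrarp was then the 1 member at an unadjusted p below 0.05 (adjusted p = 0.92). Hes5, Heyl and Mfng lay below the median of all features on every array, within the range of the background features.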
